A study of Mus musculus with 30 samples.

Results

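A set of 10 genes measured in mouse microglia isolates, Crybb1, Myo18b, Cdh23, Susd3, Rubcnl, Plxdc1, Bank1, Dennd2c, Trpm2 and Abcc3, was followed in 30 RNA-seq libraries from 15 mice. The 10 were matched by symbol among the 51752 genes of the count table. They had been picked because their levels were lower in cell isolates of animals without interleukin-34 (IL-34), so their levels in those isolates are given as a description, without a test. The picking rule states no numeric threshold. Not all of them marked the captured cells: in control animals the log2 difference of isolates minus forebrain was 1.94 for Plxdc1 and 0.48 for Trpm2, against at least 4.80 for microglia markers, and that of Trpm2 was -0.05 in the heterozygous animals alone.

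In the genotype experiment 3 Il34 knockout (KO) mice were compared with 4 heterozygotes (Het), which keep 1 working copy of Il34. In the antibody experiment 4 wild-type mice given a blocking antibody against IL-34 (anti-IL34) were compared with 4 wild-type mice given anti-gp120, the control antibody. Mice were perfused with saline. One hemisphere gave a whole-forebrain library, and the other gave a library of cells captured with magnetic beads through CD11b, a surface protein of microglia and other myeloid cells. KO animals were 1 male and 2 females, anti-IL34 animals 3 males and 1 female (animal 11), and the control arms had 2 of each sex. Age, antibody dose and antibody schedule are not given in the sources used here. The numbers 1 and 24 name different animals in each experiment.

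IL-34 is a cytokine made largely by neurons in the forebrain. It binds the receptor encoded by Csf1r, which microglia need to survive and which has a further ligand, CSF1. Microglia are the resident macrophages of the brain, and loss of IL-34 is known to lower their number in forebrain grey matter. In a bulk library fewer cells of a type and less RNA per cell cannot be told apart.

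Library totals ran from 15.1 to 75.2 M counts. Levels are in CPM (counts per M counts of a library, M standing for mega) after TMM scaling, a correction for differences in library composition. Il34 in forebrain was 19.3 to 23.6 CPM in Het and 6.81 to 8.79 CPM in KO. It was 31.9 to 38.9 CPM with anti-gp120 and 36.7 to 41.2 CPM with anti-IL34. In isolates, where the level was lower, Il34 was 5.2 to 10.6 CPM in Het and 5.34 to 7.29 CPM in KO, so the arms overlapped and the gene does not check the labels of the KO isolates. The isolates were checked with a list of 16 microglia markers, of which 15 were listed. Itgam, the gene of CD11b, had 0 to 3 counts in every library and overlaps Gm49368 on the same strand, so the marker used for the isolation could not be read. In isolates the summed level of the list was 13500 to 23700 CPM in Het, 5550 to 6040 CPM in KO, 15600 to 22000 CPM with anti-gp120 and 7660 to 12200 CPM with anti-IL34. The sums were lower in both arms without IL-34, with no overlap with their controls. Astrocyte markers were the reverse in the genotype experiment, at 964 to 2780 CPM in Het and 3320 to 3570 CPM in KO isolates, while with the antibody the arms overlapped (1140 to 3680 CPM with anti-gp120 and 2230 to 3850 CPM with anti-IL34). Oligodendrocyte and neuron markers had higher medians without IL-34 in both experiments, with overlapping arms. The oligodendrocyte medians were 6260 CPM in Het, 8910 CPM in KO, 4840 CPM with anti-gp120 and 11100 CPM with anti-IL34, and the neuron medians 296, 611, 295 and 668 CPM in the same order. Markers of border macrophages summed to 785 to 941 CPM in Het and 417 to 857 CPM in KO, and to 501 to 925 CPM with anti-gp120 and 345 to 492 CPM with anti-IL34, where the arms were apart. Choroid plexus markers were at 3.63 to 6.19 CPM with anti-gp120 and 3.34 to 1970 CPM with anti-IL34, against 1710 to 3920 CPM in Het and 1190 to 3120 CPM in KO. Neutrophil and monocyte markers, genes of other cells that carry CD11b, summed to 38.9 to 54.6 CPM in Het and 33.9 to 93.0 CPM in KO. They summed to 40.4 to 264 CPM with anti-gp120, lowest in animal 15 with the next at 126 CPM, and to 130 to 412 CPM with anti-IL34. The part of these other cells in the levels of the 10 genes was not tested.

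Promoter windows, from 250 bases before to 50 bases after the start of transcription (RefSeq, GRCm38.p6), were found for 7 of the 10 genes. Those of Crybb1, Susd3 and Bank1 are shown because these genes fell in forebrain with the antibody, Crybb1 and Susd3 also with the deletion. Capitals mark matches, on either strand, to motifs of myeloid factors or of the core promoter.
Crybb1, chr5:112255570-112255869, plus strand: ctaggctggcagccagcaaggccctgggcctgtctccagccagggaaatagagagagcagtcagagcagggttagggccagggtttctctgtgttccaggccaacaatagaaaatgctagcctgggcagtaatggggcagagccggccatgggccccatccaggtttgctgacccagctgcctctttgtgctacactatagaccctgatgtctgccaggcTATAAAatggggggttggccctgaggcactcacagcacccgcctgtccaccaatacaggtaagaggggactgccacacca
Susd3, chr13:49248245-49248544, minus strand: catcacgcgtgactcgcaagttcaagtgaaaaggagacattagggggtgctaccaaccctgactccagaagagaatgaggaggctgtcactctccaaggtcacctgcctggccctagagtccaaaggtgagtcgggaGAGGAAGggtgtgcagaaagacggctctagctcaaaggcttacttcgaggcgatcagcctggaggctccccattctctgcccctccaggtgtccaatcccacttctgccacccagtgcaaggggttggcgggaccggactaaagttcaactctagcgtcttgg
Bank1, chr3:136326017-136326316, minus strand: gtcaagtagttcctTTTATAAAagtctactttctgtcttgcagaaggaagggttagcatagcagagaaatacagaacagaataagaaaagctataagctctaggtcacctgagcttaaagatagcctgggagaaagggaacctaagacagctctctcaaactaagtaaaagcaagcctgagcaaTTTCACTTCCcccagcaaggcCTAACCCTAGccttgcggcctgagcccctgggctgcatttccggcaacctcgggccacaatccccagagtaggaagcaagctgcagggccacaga
In Crybb1 the capitals mark the TATA box letters TATAAA, whose first base lies at -30. In Susd3 they mark GAGGAAG, a PU.1 motif, at -113. In Bank1 they mark TATAAA on both strands in 1 overlapping run, at -234 and -236, far from the place it has in Crybb1. They also mark the PU.1-IRF composite (GGAA, 2 free bases, GAAA) read on the other strand at -66, and the MEF2 motif (CTA, 4 free bases, TAG) at -45. TATAAA was also read on the other strand in Dennd2c at -53 and in Trpm2 at -240, so only Crybb1 held it at -30. Over the 8 windows of the 7 genes (Dennd2c has 2), 1 held GAGGAAG, 1 held the PU.1-IRF composite, 1 held the RUNX motif TGTGGT, 2 held the MEF2 motif and 4 held TATAAA. Over 32851 promoter windows of the same length these shares were 13.6%, 2.72%, 16.8%, 3.69% and 13.6%. Windows of Cdh23 and Rubcnl held none of the 5 motifs, which says only that these letters are not in those windows.

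The 10 genes differ in what they encode. Crybb1 encodes a beta crystallin, a structural protein best known from the eye lens, and Myo18b an unconventional myosin known from muscle. Cdh23 encodes a cadherin of the inner-ear tip link, Susd3 a small membrane protein with a sushi domain, and Plxdc1 a plexin-domain protein first described in tumour endothelium. Bank1 encodes an adaptor of B-cell receptor signalling, Rubcnl a relative of the autophagy protein Rubicon, and Dennd2c a DENN-domain protein of the kind that activates Rab GTPases. Trpm2 encodes a calcium-permeable channel opened by ADP-ribose, and Abcc3 an export pump for organic anions.

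In isolates of the genotype experiment each of the 10 genes was lower in every KO library than in every Het library. The share of all 18185 genes with arms apart in that direction was 19.7%; since the genes were picked on these libraries, nothing is read from the comparison. Crybb1 (chromosome 5, 112255815 to 112269585, plus strand, GRCm38) was at 117, 154, 145 and 144 CPM in Het (animals 1, 20, 21 and 23, an order kept below) and at 33.1, 32.5 and 31.3 CPM in KO (animals 3, 6 and 24). The 3 KO values lie within 2 CPM of each other, far below the lowest Het library, and the fitted log2 fold change was -2.13 (SE 0.136), a level of 22.9% of Het. Myo18b (chromosome 5, 112688876 to 112896362, minus strand) was at 85.1, 96.3, 131 and 133 CPM in Het and 20.7 to 23.9 CPM in KO, with the lowest log2 fold change of the 10, -2.37 (SE 0.209). The Het animals spread more widely than the KO animals, and the arms were far apart.

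Among the surface proteins, Cdh23 (chromosome 10, 60302748 to 60696490, minus strand) was at 21.7 to 32.6 CPM in Het and 6.37 to 7.31 CPM in KO isolates, a log2 fold change of -2.01 (SE 0.179). Susd3 (chromosome 13, 49230690 to 49248706, minus strand) was at 39.2 to 49.7 and 12.8 to 15.2 CPM. Plxdc1 (chromosome 11, 97923238 to 97986444, minus strand) was at 44.2 to 53.2 and 18.0 to 20.3 CPM, a log2 fold change of -1.30 (SE 0.120). Endothelial markers, a second known source of Plxdc1, summed to 645 to 1110 CPM in Het and 729 to 935 CPM in KO isolates, so the arms overlapped for them.

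The intracellular adaptors were lower as well. Bank1 (chromosome 3, 136053363 to 136326066, minus strand) was at 63.5, 69.5, 98.8 and 68.8 CPM in Het and 22.3, 25.6 and 19.8 CPM in KO isolates. Het animal 21 stood above the other Het animals, and its microglia marker sum was also the highest of its arm (23700 CPM against 13500 to 17000 CPM). Because Bank1 is known from B cells, a list of 6 B-cell markers was read beside it. Cd79a and Ms4a1 were at most 1.10 CPM in every isolate. Ighm was 135 to 272 CPM in Het and 63.5 to 74.6 CPM in KO, while its arms overlapped with the antibody (124 to 231 and 92.9 to 154 CPM). Over the 5 listed genes in the KO fit the median log2 fold change in isolates was 0.32, above 0 where Ighm was lower, and over the 4 in the antibody fit it was -0.11. Rubcnl (chromosome 14, 75016027 to 75052532, plus strand) was at 52.8 to 68.6 and 18.0 to 20.6 CPM. Dennd2c (chromosome 3, 103102604 to 103169769, plus strand) had the smallest change of the 10, from 30.3 to 45.6 CPM in Het to 13.3 to 17.4 CPM in KO, a log2 fold change of -1.20 (SE 0.145).

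The channel and the pump followed. Trpm2 (chromosome 10, 77907722 to 77970563, minus strand) was at 24.2 to 38.6 and 10.9 to 13.1 CPM, a log2 fold change of -1.52 (SE 0.180). Abcc3 (chromosome 11, 94343295 to 94392997, minus strand) was at 137, 173, 202 and 180 CPM in Het and 54.9, 56.8 and 49.1 CPM in KO. The median log2 fold change of the 10 genes was -1.68, against 0.02 over all genes. The median of 14 microglia markers in the same libraries was -1.52, with a range from -1.92 to -1.03. Crybb1, Myo18b and Cdh23 lay below that range and the other 7 within it. Since the genes were picked on these libraries, nothing is read from their median or their places against the markers.

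**Figure D1:**
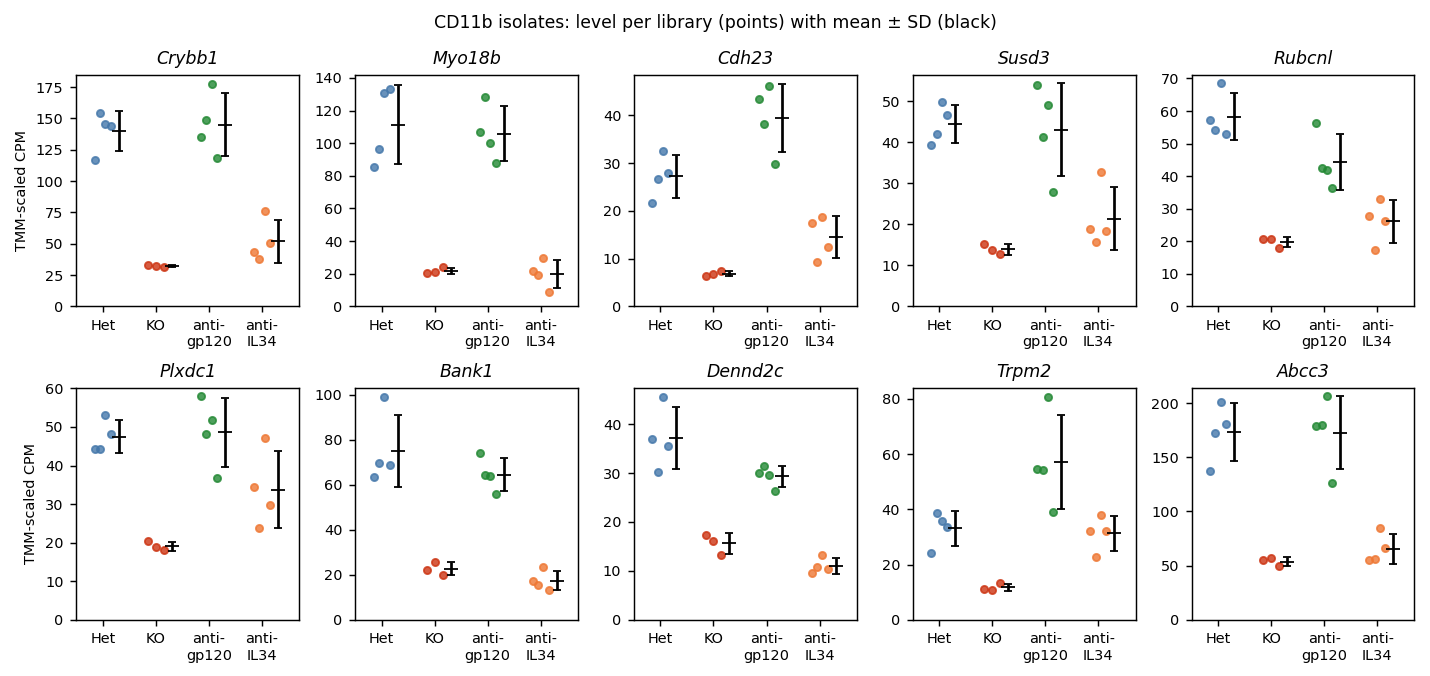
Level of each gene in CD11b isolates (vertical axis, TMM-scaled CPM from 0) by arm; coloured points are libraries, black bars the mean and SD over 4 animals (3 for KO). The KO libraries of all 10 genes lie below every Het library, and 1 anti-IL34 library, animal 11, lies highest in its arm in each panel.

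With the antibody 8 of the 10 genes had every anti-IL34 isolate below every anti-gp120 isolate, where 10.7% of all 17570 genes did, and again nothing is read from that. Myo18b was at 107, 129, 100 and 87.9 CPM with anti-gp120 (animals 1, 7, 8 and 15) and 21.6, 19.3, 29.4 and 9.04 CPM with anti-IL34 (animals 2, 10, 11 and 24), a log2 fold change of -2.40 (SE 0.325). Bank1 was at 55.8 to 74.0 CPM and 13.1 to 23.2 CPM (-1.88, SE 0.185). These were the lowest log2 fold changes of the 10 with the antibody, and Myo18b was also lower than the 14 microglia markers, which ranged from -1.93 to -0.41 with a median of -0.79. The genes were picked on these libraries, so nothing is read from their places against the markers. Dennd2c was at 26.2 to 31.4 and 9.52 to 13.3 CPM (log2 fold change -1.40, SE 0.133). Crybb1 (-1.42), Cdh23 (-1.42) and Abcc3 (-1.37) had log2 fold changes close to it.

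The other genes had smaller log2 fold changes with the antibody: -0.99 for Susd3, -0.82 for Trpm2, -0.76 for Rubcnl and -0.51 for Plxdc1. Susd3 was at 53.8, 41.3, 49.1 and 28.0 CPM with anti-gp120 and 18.8, 15.7, 32.7 and 18.2 CPM with anti-IL34. The arms overlapped through anti-gp120 animal 15, at 28.0 CPM, and anti-IL34 animal 11, at 32.7 CPM. Plxdc1 overlapped through the same pair, at 36.8 and 47.3 CPM. For all 10 genes the isolate of animal 15 was the lowest of its arm and that of animal 11 the highest of its arm. Microglia markers followed these libraries, with a sum of 15600 CPM in animal 15 against 17400 to 22000 CPM in the other anti-gp120 isolates. In animal 11 the sum was 12200 CPM against 7660 to 9590 CPM in the other anti-IL34 isolates. Astrocyte markers did the reverse, at 3680 CPM in animal 15 against 1140 to 1990 CPM, and 2230 CPM in animal 11 against 2900 to 3850 CPM. Their part in the antibody values was not tested. Without animal 11 the log2 fold changes of Susd3, Bank1 and Dennd2c were -1.44, -2.17 and -1.58, the gene with the largest shift being Susd3. Without it that of Rubcnl was -1.06 and that of Plxdc1 -0.86. Without anti-gp120 animal 1 the values of Susd3, Rubcnl and Plxdc1 were nearer to 0, at -0.76, -0.56 and -0.33.

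The stated picking rule uses isolates and no forebrain library, but the genes were chosen with earlier results of these data known. The forebrain tests are therefore not fully independent of the choice. In forebrain the arms were tested with edgeR's quasi-likelihood test and Benjamini-Hochberg adjustment over all genes (threshold 0.05). Forebrain libraries come from the other hemisphere of the same animals. In KO forebrain 3 of the 10 genes fell, Crybb1, Abcc3 and Susd3, and 0 rose, where 0.615% of the 19343 genes tested fell and 0.00517% rose. All 10 passed the filter on low counts. Their median log2 fold change was -0.46, against -0.000209 over all genes.

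Crybb1 was at 4.17, 4.56, 3.79 and 4.11 CPM in Het and 0.801, 1.13 and 0.855 CPM in KO forebrain. No KO library came near a Het library, and the log2 fold change was -2.15 (SE 0.160, edgeR p 1.74e-05 after Benjamini-Hochberg adjustment). Abcc3 was at 2.79, 2.30, 2.29 and 2.88 CPM in Het and 0.585, 0.779 and 0.570 CPM in KO. The arms were again apart, at -1.95 (SE 0.202, edgeR p 0.000316 after Benjamini-Hochberg adjustment). Susd3 was at 0.881, 1.06, 1.01 and 1.29 CPM in Het and 0.277, 0.445 and 0.238 CPM in KO, which is 5 to 24 counts per KO library. Its log2 fold change was -1.67 (SE 0.276, edgeR p 0.0126 after Benjamini-Hochberg adjustment), and the call was lost without KO animal 24 (adjusted edgeR p 0.0575) or KO animal 3 (adjusted edgeR p 0.123). For these 3 genes, forebrain and isolates gave log2 fold changes of -2.15 and -2.13, -1.95 and -1.69, and -1.67 and -1.67 in turn; a difference between tissues was not tested.

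Bank1 was at 2.18, 2.35, 2.06 and 2.19 CPM in Het and 0.986, 1.48 and 1.57 CPM in KO forebrain. Its arms did not overlap, yet at a log2 fold change of -0.76 (SE 0.173) it stayed short of the threshold (edgeR p 0.0936 after Benjamini-Hochberg adjustment). B-cell markers in the same libraries also had arms apart, with sums of 10.6 to 12.8 CPM in Het and 6.27 to 10.5 CPM in KO, of which Ighm made 9.66 to 11.5 and 5.75 to 9.45 CPM. Their part in the value of Bank1 was not tested. Myo18b and Rubcnl likewise had arms apart without passing, at -0.44 (adjusted edgeR p 0.319) and -0.48 (adjusted edgeR p 0.575, both Benjamini-Hochberg). In all 6 genes had arms apart in the lower direction, where 5.14% of all genes tested did. Myo18b, with the lowest log2 fold change of the 10 in isolates, was at 3.10 to 3.60 CPM in Het and 2.43 to 2.65 CPM in KO forebrain.

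Cdh23, Dennd2c, Plxdc1 and Trpm2 had overlapping arms in KO forebrain. Cdh23 was at 1.19 to 3.52 CPM in Het and 1.52 to 2.06 CPM in KO (log2 fold change -0.33, SE 0.285), at 32 to 160 counts per library. Trpm2 was at 33.6, 33.4, 34.9 and 34.6 CPM in Het and 34.5, 35.7 and 34.7 CPM in KO, at 0.04 (SE 0.047, edgeR p 0.901 after Benjamini-Hochberg adjustment). These values were within 3 CPM of each other, while in isolates the KO level of Trpm2 was 34.8% of Het. Plxdc1 was at 11.2 to 13.1 and 11.3 to 11.7 CPM (-0.11, SE 0.073, edgeR p 0.801 after Benjamini-Hochberg adjustment).

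**Figure D2:**
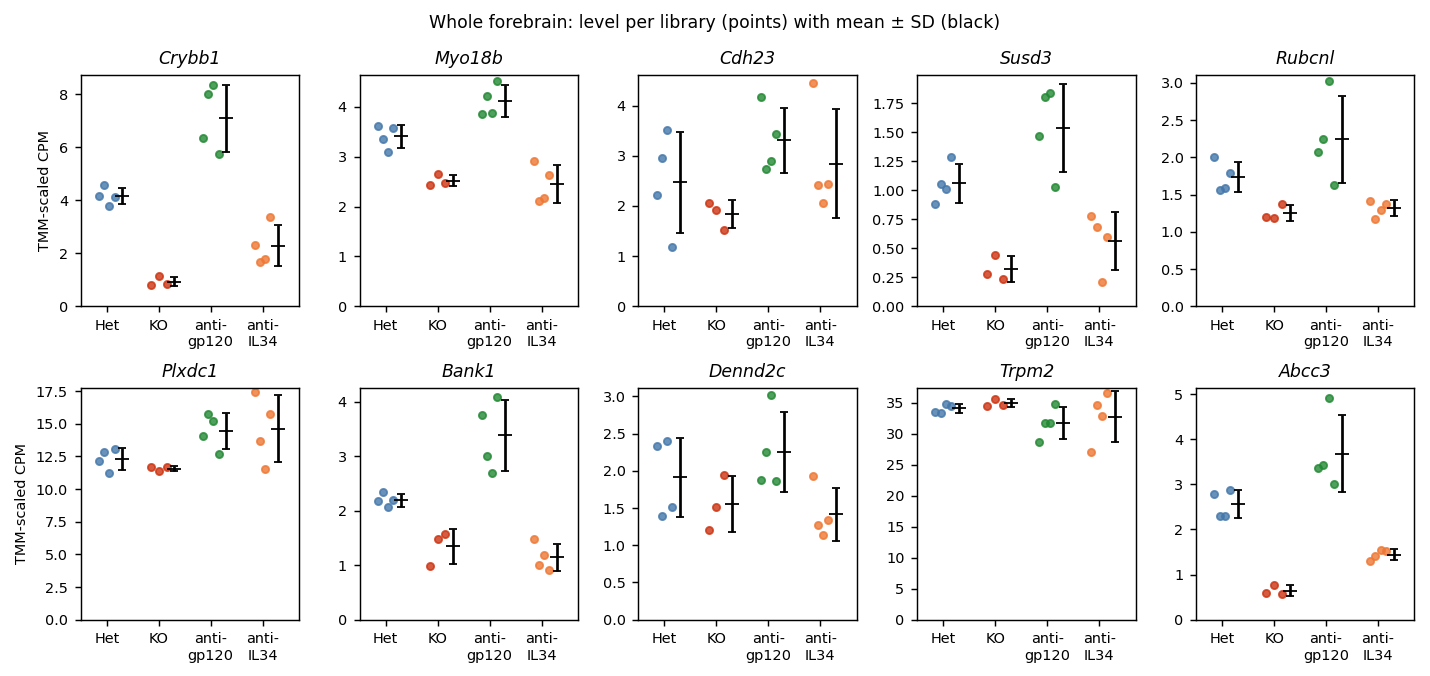
Level of each gene in whole forebrain (vertical axis, TMM-scaled CPM from 0) by arm, drawn as for the isolates. Crybb1, Myo18b, Susd3, Rubcnl, Bank1 and Abcc3 have every library without IL-34 below every control library in both experiments, and the arms of Trpm2 and of Plxdc1 overlap within each experiment.

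With the antibody 4 of the 10 genes fell in forebrain, Crybb1, Bank1, Abcc3 and Susd3, and 0 rose, where 0.525% of the 17143 genes tested fell and 0.192% rose. Crybb1 was at 6.33, 7.99, 8.33 and 5.73 CPM with anti-gp120 and 2.32, 1.67, 1.80 and 3.36 CPM with anti-IL34, a log2 fold change of -1.69 (SE 0.225, edgeR p 0.00615 after Benjamini-Hochberg adjustment). The lowest control library stood above the highest treated one. Bank1 was at 3.75, 3.01, 2.69 and 4.10 CPM and 1.49, 1.01, 1.19 and 0.920 CPM (-1.59, SE 0.214, edgeR p 0.00635 after Benjamini-Hochberg adjustment). Abcc3 was at 3.36, 3.44, 4.92 and 3.01 CPM and 1.29, 1.41, 1.55 and 1.52 CPM (-1.29, SE 0.187, edgeR p 0.00843 after Benjamini-Hochberg adjustment). For both genes the arms were apart.

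Susd3 was at 1.47, 1.80, 1.84 and 1.02 CPM with anti-gp120 and 0.775, 0.682, 0.206 and 0.598 CPM with anti-IL34, the lowest being 4 counts in animal 11. It passed narrowly at -1.53 (SE 0.304, edgeR p 0.0491 after Benjamini-Hochberg adjustment) and in 0 of 8 fits made with 1 animal fewer. The calls depend on single animals, most of all on anti-IL34 animal 11. It was the only female of its arm, so a fit without it leaves that arm all male beside the sex covariate. Without animal 11, 0 of the 4 genes passed, while all 4 log2 fold changes stayed between -1.62 and -1.26. Adjusted edgeR p (Benjamini-Hochberg) was then 0.0730 for Crybb1, 0.0588 for Bank1, 0.0993 for Abcc3 and 0.303 for Susd3. Without anti-gp120 animal 7, 2 passed, and Abcc3 (adjusted edgeR p 0.0514) and Susd3 (0.228, both Benjamini-Hochberg) did not.

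A group of 6 genes, Crybb1, Myo18b, Susd3, Rubcnl, Bank1 and Abcc3, had arms apart with the antibody in forebrain, where 2.26% of all genes tested did, and they were the same 6 as in KO forebrain. Myo18b was at 3.84, 4.22, 3.87 and 4.52 CPM with anti-gp120 and 2.91, 2.12, 2.16 and 2.62 CPM with anti-IL34. At -0.77 on the log2 scale it did not pass (edgeR p 0.0653 after Benjamini-Hochberg adjustment) and passed with DESeq2 (adjusted p 0.0125) or without the sex term (adjusted edgeR p 0.0397). Cdh23 was at 2.73 to 4.18 CPM with anti-gp120 and 2.06 to 4.46 CPM with anti-IL34, at -0.32 (SE 0.240, edgeR p 0.999 after Benjamini-Hochberg adjustment). Dennd2c had -0.66 (adjusted edgeR p 0.695), Rubcnl -0.76 (0.320), Plxdc1 -0.05 (0.999) and Trpm2 0.08 (0.999, all Benjamini-Hochberg). Trpm2 was at 28.8 to 34.9 CPM with anti-gp120 and 27.1 to 36.6 CPM with anti-IL34, and the arms overlapped. The sign of Plxdc1 was not the same in all fits.

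Deletion and antibody effects in forebrain were compared directly over 15 libraries. Among 19724 genes 2 passed with edgeR, 0.0101% lower and 0% higher, and 605 had an unadjusted p under 0.05. None of the 10 genes was among the 2 called with edgeR, and 2 of the 10 had an unadjusted p under 0.05. The largest differences were those of Bank1, at 0.82 (SE 0.273), and Abcc3, at -0.68 (SE 0.271), both with an edgeR p of 1.00 after Benjamini-Hochberg adjustment. A positive value means a smaller fall with deletion.

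**Figure D3:**
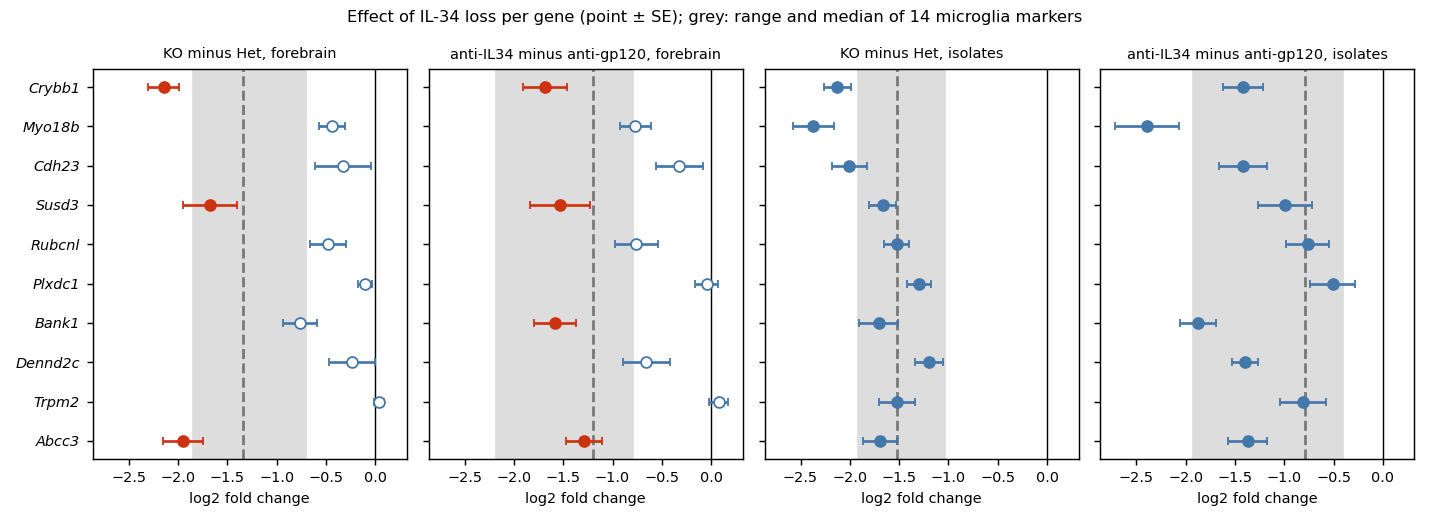
Fitted log2 fold change of each gene (point, bar for SE) in 4 comparisons. Filled red points fell past the edgeR threshold, open points did not pass, and filled blue points in isolates were not tested; the grey band and dashed line show the range and median of 14 microglia markers. In KO forebrain 6 genes lie to the right of the band, and in KO isolates, on which the genes were picked, none does.

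The 14 microglia markers of forebrain had a median of -1.34 on the log2 scale in KO (range -1.85 to -0.70) and -1.20 with the antibody (-2.18 to -0.79). Crybb1 and Abcc3 were below that range in KO. Susd3 and Bank1 lay within it, and Myo18b, Cdh23, Rubcnl, Plxdc1, Dennd2c and Trpm2 above it. With the antibody, 4 genes, Crybb1, Susd3, Bank1 and Abcc3, lay within the marker range and 6 above it. Oligodendrocyte markers were also lower in KO forebrain, with 4 of 5 past the edgeR threshold and sums of 4120 to 4410 CPM against 5040 to 6040 CPM in Het, and their part in the values above was not tested. Border macrophage markers summed to 15.5 to 20.2 CPM in Het and 12.1 to 16.1 CPM in KO forebrain, and to 16.9 to 26.9 CPM with anti-gp120 and 7.75 to 17.3 CPM with anti-IL34. The arms overlapped in both experiments. Their median log2 fold changes were -0.38 and -0.56, beside medians of -0.46 and -0.76 for the 10 genes, and their part was not tested.

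How far each gene belongs to the captured cells was read from isolates against forebrain in the 8 control animals, Het and anti-gp120. These control isolates are part of the contrasts that picked the genes, so the values of the 10 genes are a description, without a test. In the fit over both experiments 40.5% of all 19952 genes were higher in isolates and 43% lower (edgeR), and nothing is read from that for the 10. Abcc3 was 60.1-fold higher (log2 5.91, SE 0.152), Susd3 36.3-fold, Myo18b 30.8-fold, Crybb1 27.8-fold, Rubcnl 27.7-fold and Bank1 27.1-fold. Dennd2c was 17.3-fold and Cdh23 12.2-fold higher. Plxdc1 was 3.82-fold higher and Trpm2 1.40-fold (log2 0.48, SE 0.182).

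The value of Trpm2 rests on the anti-gp120 animals. In these alone its log2 difference was 1.07 (SE 0.199), with 39.2 to 80.5 CPM in isolates and 28.8 to 34.9 CPM in forebrain. In Het animals alone it was -0.05 (SE 0.137), and 24.2 to 38.6 CPM in isolates overlapped 33.4 to 34.9 CPM in forebrain. It was 0.32 without anti-gp120 animal 8. CPM was scaled within each tissue and experiment, the difference between the experiments was not tested, and both within-experiment fits were added after the data had been seen. The 14 microglia markers had a median log2 difference of 5.72 and a lowest value of 4.80. Abcc3, Susd3 and Myo18b lay in their range, Crybb1 at its lower edge and the other 6 below it.

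**Figure D4:**
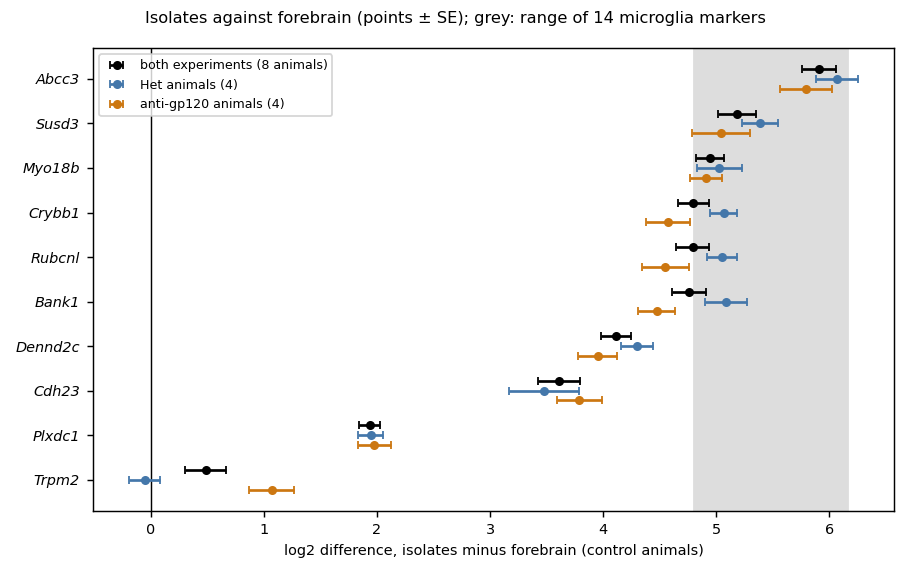
Log2 difference of isolates minus forebrain in control animals (horizontal axis) for each gene, with both experiments in 1 fit (black), Het animals alone (blue) and anti-gp120 animals alone (orange); points are fitted values, bars SE, and the grey band the range of 14 microglia markers. Trpm2 lies at -0.05 in Het animals and 1.07 in anti-gp120 animals, and Abcc3 lies farthest to the right.

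Levels between genes were compared per length, on the authors' TPM scale. In control isolates (n = 8) Crybb1 was highest, at 202.9 ± 26.8 TPM (SD), and its range of 172.5 to 250.9 TPM lay above all others. Abcc3 followed at 67.9 ± 8.77 TPM and Susd3 at 47.4 ± 7.53 TPM, with ranges that overlapped. Rubcnl was at 27.5 TPM, Plxdc1 at 14.9 TPM, Trpm2 at 14 TPM, Myo18b at 10.2 TPM, Dennd2c at 9.69 TPM and Bank1 at 4.99 TPM, and Cdh23 was lowest at 1.65 ± 0.379 TPM. The ranges of Plxdc1, Trpm2, Myo18b and Dennd2c overlapped one another, and that of Rubcnl (20.01 to 34.44 TPM) overlapped those of Susd3 above it and Trpm2 below it. The deposited lengths are whole gene spans, introns included, and per kilobase of exon Myo18b moved from place 7 to 5, Bank1 from 9 to 7, Plxdc1 from 5 to 6 and Trpm2 from 6 to 9. Crybb1, Abcc3, Susd3, Rubcnl, Dennd2c and Cdh23 held their places. Per kilobase of exon the ranges of Rubcnl, Myo18b, Plxdc1 and Bank1, places 4 to 7, overlapped one another, so their order is not settled beyond the spread. On that scale Susd3 (9.853 to 18.97 CPM per kilobase) overlapped each of them. Trpm2 (1.944 to 6.465) overlapped Dennd2c (3.825 to 6.654) and Cdh23 (1.284 to 2.725), so these places are not settled either. In control forebrain Trpm2 was highest in TPM (13.7 ± 1.05), with Crybb1 next (10.6 ± 3.24), and per exonic length Crybb1 came first and Trpm2 in place 3. The TPM ranges overlapped, at 12.07 to 15.15 for Trpm2 and 7.296 to 15.37 for Crybb1, and Crybb1 itself was 3.79 to 4.56 CPM in Het and 5.73 to 8.33 CPM with anti-gp120. The order of these neighbours is therefore not settled beyond their spread.

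Cdh23 carries a limit of its own. The gene Vsir, an immune checkpoint gene known from myeloid cells (chromosome 10, 60346851 to 60372684, plus strand), lies inside its span on the other strand, with no shared exon bases. Vsir was at 629.5 to 952.1 CPM in Het and 241.1 to 244.9 CPM in KO isolates, a log2 fold change of -1.64. In forebrain it fell by 0.86 in KO (adjusted edgeR p 6.95e-05) and by 1.13 with the antibody (adjusted edgeR p 0.000317, both Benjamini-Hochberg, log2 scale). Cdh23 counts were 3.43 to 3.83% of Vsir counts in Het isolates and 2.63 to 2.99% in KO isolates. With anti-gp120 they were 4.48 to 6.12% and with anti-IL34 3.33 to 5.31%. In forebrain the shares were higher, at 6.61 to 20.0% in Het, 17.7 to 20.1% in KO, 9.59 to 17.5% with anti-gp120 and 18.3 to 36.3% with anti-IL34. They were lower in KO than in Het isolates and higher with anti-IL34 than with anti-gp120 in forebrain, without overlap in either case. Over the 8 control isolates together the share was 4.42%. Among 42 pairs of a gene inside another on the opposite strand, whose inner gene had at least 10000 counts over these isolates, the outer gene's counts were as low as 0.12% of the inner gene's, with a median of 11.6%, and 16 pairs were lower than Cdh23 and Vsir. The library kit is not stated to mark strand and the counting settings are not given in the sources used here, so reads of Cdh23 and Vsir may not be told apart where the spans overlap. Of 461 coding genes nested on the opposite strand 213 had at least 1000 counts, against 1 of 330 nested on the same strand. That is a pattern of counting by strand, but whether strand was used is not settled. How much of the Cdh23 count comes from Vsir RNA was not tested. A second gene inside Cdh23 is Gm17455, a protein-coding gene on the plus strand with no shared exon bases. In isolates it had 19 to 70 counts in Het and 22 to 155 in KO libraries, where Cdh23 had 352 to 1078 and 153 to 287 counts. With anti-gp120 it had 7 to 44 and with anti-IL34 13 to 32 counts, where Cdh23 had 650 to 2292 and 214 to 964. It had at most 21 counts in any forebrain library, and its part in the Cdh23 count was not tested. In Bank1 lies part of Gm31243, an antisense gene with no shared exon bases. In forebrain it had 11 to 25 counts in Het and 7 to 20 in KO, where Bank1 had 92 to 136 and 32 to 80 counts. With anti-gp120 it had 1 to 18 and with anti-IL34 2 to 20 counts, where Bank1 had 41 to 284 and 20 to 43. In isolates it had at most 6 counts, and its part in the Bank1 values was not tested. The antisense gene 1700095B10Rik in Myo18b had at most 2 counts and the pseudogene Gm11633 in Plxdc1 at most 32 in any library. The snoRNA genes Gm22394 and Gm22871 share 44 and 47 exon bases with Trpm2 on the same strand and had 0 counts in every library. The miRNA gene Gm22461 in Plxdc1 was not analysed here.

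Relatives and known partners of the 10 genes, 81 in all, were read in forebrain. In KO forebrain 4 of 73 tested fell and 0 rose (edgeR), against 0.615% and 0.00517% of all genes, with a median log2 fold change of -0.02. With the antibody 2 of 65 fell and 0 rose, against 0.525% and 0.192% (median -0.01). Of these 4, 3 belong to the list of 5 BANK1 relatives and partners. Pik3ap1, the relative of Bank1 that links receptors to PI3 kinase, fell by 0.88 (adjusted edgeR p 0.00764), and the kinases Lyn and Syk fell by 0.52 (adjusted edgeR p 0.0194) and 0.58 (0.0473, Benjamini-Hochberg) on the log2 scale. Syk also fell with the antibody, by 0.86 (edgeR p 0.0482 after Benjamini-Hochberg adjustment). Plcg2, a phospholipase of the same pathway, was at -0.59 and -0.61 without passing (adjusted edgeR p 0.0954 and 0.0839, Benjamini-Hochberg). In control animals Pik3ap1, Lyn, Syk and Plcg2 were higher in isolates than in forebrain, by 6.31, 5.19, 5.39 and 5.50 on the log2 scale. Of the 14 microglia markers 13 fell in KO forebrain and 11 with the antibody (edgeR), so the falls are not particular to the BANK1 list.

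The fourth gene was Myo1f, a myosin of immune cells, at -1.24 in KO (adjusted edgeR p 0.00138) and -1.01 with the antibody (0.0408, Benjamini-Hochberg). Its log2 difference of isolates minus forebrain in control animals was 5.29. Myo18a, the closest relative of Myo18b, was at -0.02 and -0.03 and its level was alike in both tissues of controls, at 210.5 CPM in forebrain and 197.6 CPM in isolates. None of the tested relatives of Crybb1, Cdh23, Susd3, Rubcnl, Plxdc1, Dennd2c, Trpm2 or Abcc3 passed in forebrain with edgeR. Among them were Pcdh15, the tip-link partner of Cdh23, which was lower in isolates than in forebrain (log2 -2.75), Becn1 and Rubcn of the autophagy machinery, and the pumps Abcc5 and Abcc1. These 5 genes were named for their high forebrain level. In isolates, described without a test, relatives went both ways. In KO and with the antibody Dennd1c was at -1.38 and -0.73, Whrn at -1.37 and -0.86, and Dennd5b at 0.78 and 0.53 on the log2 scale. Plxdc2, the relative of Plxdc1, was at 67.1 CPM in control forebrain and 672.1 CPM in isolates. Its log2 fold change was -1.37 in KO and -0.93 with the antibody in isolates, and -0.18 (edgeR p 0.171 after Benjamini-Hochberg adjustment) in KO forebrain. In forebrain with the antibody it was -0.04 (edgeR p 0.999 after Benjamini-Hochberg adjustment).

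Cryba4, a crystallin gene 3296 bases from Crybb1 on the minus strand, was singled out after its values were seen. It was at 7.78 to 11.7 CPM in Het and 3.22 to 3.91 CPM in KO isolates, and at 7.91 to 12.3 CPM with anti-gp120 and 4.94 to 8.18 CPM with anti-IL34, where the arms overlapped. In KO forebrain it had a log2 fold change of -2.15 (SE 0.489) and did not pass (edgeR p 0.0947 after Benjamini-Hochberg adjustment) at levels under 0.4 CPM. With the antibody the forebrain arms overlapped, at 0.241 to 0.853 and 0 to 0.646 CPM (log2 fold change -1.29, SE 0.608, edgeR p 0.999 after Benjamini-Hochberg adjustment).

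Genes outside the 10 were ranked by the root mean square of their differences from the median of the 10 over 5 log2 values (both arm contrasts in both tissues and isolates against forebrain), among 16043 genes. The nearest were Ptgs1 (0.143), Golm1 (0.153), Rab3il1 (0.187), Pde3b (0.190) and Hpgd (0.193). Of the 10 genes themselves Rubcnl was nearest to their median (0.286) and Trpm2 farthest (1.99), with Plxdc1 next (1.39).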

How the data were processed

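Per the labels' protocols, RNA was extracted with TRIzol and the SMART-Seq v4 Ultra Low Input kit was used for the libraries. The submitters' processing notes name STAR 2.7.5c, featureCounts 1.6.3, R 4.4.0 and the build GRCm38, without roles. The authors deposited raw read counts per gene for 51752 genes and a TPM table. TPM was the deposited count over the deposited Length (a unit other than expression, in bases), scaled, over 491002 values. Length equalled the whole gene span of GENCODE M21 for 51183 of 51498 matched genes. Use of strand is not given in the sources used here. Of 461 coding genes nested in a gene of the opposite strand 213 had at least 1000 counts in total, against 1 of 330 nested on the same strand, a pattern of counting by strand over gene spans, although the kit is not stated to mark strand; whether strand was used is not settled. A deposited sample sheet gave the animal number (a label, unit other) and matched the labels for 30 of 30 libraries. Columns that matched no labelled sample, 6 of counts and 6 of TPM, were not used.

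Counts were tested with edgeR 4.0.16 (R 4.3.3): TMM scaling, default expression filter, quasi-likelihood test, sex as covariate (experiment and sex for tissues), and Benjamini-Hochberg adjustment at 0.05. Each arm comparison used the libraries of 1 tissue and 1 experiment. SE is the log2 fold change over the square root of F. Alternatives were RLE scaling, no filter, DESeq2 1.42.0, no sex term, each animal left out and, for tissues, the animal as a replicate block and each experiment alone. Tissues were to be tested in all genes; for the 10 genes these values are given without a test, since control isolates took part in picking them. Forebrain and isolate libraries of an animal are paired by its number in labels and sheet; their deviations from group means correlated at a median of 0.0466 (range -0.0335 to 0.313, above 0.1 in 6 of 15 animals, over 13042 genes). Replicates were compared over 42 pairs (lowest chi-square per degree of freedom 5.84), and no pair looked like 1 library deposited again. The labels do give separate animals. On simulated data with 200 changed genes the KO forebrain fit (19343 genes) recovered 81% of changes of 1 and 96% of 2 on the log2 scale, and the antibody forebrain fit (17143 genes) 85% and 97%. The difference between them (19724 genes) recovered 36% and 87%. False calls among unchanged genes were 14, 3 and 13 in turn. Every simulated gene had the same fixed spread between replicates, not estimated from these libraries. The shares therefore do not give the power of the tests in the real data. At 15.1 to 75.2 M counts per library, counting error is part of the spread for genes near 1 CPM.

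The 10 genes, the gene lists and the motifs were chosen with earlier results of these data known. Named were all 10 genes, the relatives past the threshold in forebrain (at most 3 per list) or with the highest forebrain level (2 per list, of which some are named), overlapping genes, and the 5 genes nearest in pattern. The relatives lists covered crystallins, unconventional myosins, tip-link, sushi-domain, Rubicon and class III PI3 kinase, plexin-domain, BANK1, DENN, TRPM and ABCC genes.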

Additional observations from a re-analysis of the deposited data

Results flagged for a closer look

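Of 60 groups of 4 libraries examined for the 10 genes, 2 held a value far from the others by Dixon's gap test, which chance gives in about 1 of 20 groups. Cdh23 was at 4.46 CPM in the forebrain of anti-IL34 animal 2, against 2.06 to 2.44 CPM in the other anti-IL34 forebrains (gap over range 0.842). Bank1 was at 98.8 CPM in the isolate of Het animal 21, against 63.5 to 69.5 CPM in the other Het isolates (gap over range 0.830). That library was the highest of its arm for 7 of the 10 genes. Its microglia markers summed to 23700 CPM, against 13500 to 17000 CPM in the other Het isolates, and its astrocyte markers to 964 CPM, against 1690 to 2780 CPM; their part in the value was not tested.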

How the results depend on the processing

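Counts of genes called moved with settings, and so did some calls and signs among the 10 genes. In KO forebrain 120 genes passed, 381 without a filter on low counts and 55 to 117 with 1 animal left out (55 without KO 3, 72 without KO 6). With the antibody in forebrain 123 passed, 349 without a filter, 198 with DESeq2 and 25 to 126 with 1 animal left out (25 without anti-IL34 11, 41 without anti-gp120 7, 66 without anti-gp120 1, 73 without anti-IL34 24 and 77 without anti-gp120 8); of the 10 genes 4 passed, and 0 to 3 with 1 animal left out. For deletion against antibody 2 passed, 114 without a filter, 28 with DESeq2, 4 without the sex term and 2 to 33 with 1 animal left out (33 without anti-IL34 10, 5 without anti-IL34 11). Of 650 alternative values of the 10 genes in the arm comparisons and their difference, 611 kept their direction and their side of the threshold or moved by less than the spread, 4 gained the threshold, 15 lost it, 3 moved and 17 changed sign. Beside those given above, Bank1 passed in KO forebrain without a filter (adjusted edgeR p 0.00525), as did Myo18b with the antibody (0.00411), and Susd3 lost the call with the antibody without the sex term (0.0689, all Benjamini-Hochberg). Each value that changed sign was smaller than its SE. In KO forebrain these were Cdh23 (-0.61 to 0.021 with 1 animal left out, positive without Het 20) and Dennd2c (-0.40 to 0.22, positive without KO 3). With the antibody Plxdc1 was at 0.0085 when sex was dropped and -0.14 to 0.057 with 1 animal left out, positive on leaving out anti-IL34 animal 11 or anti-gp120 animal 8. For deletion minus antibody Cdh23 was at 0.0064 without a filter and between -0.26 and 0.28 with 1 animal left out, Susd3 between -0.57 and 0.018, Plxdc1 between -0.21 and 0.0083 and Trpm2 between -0.10 and 0.025. Between tissues Trpm2 was at -0.055 in Het animals alone, below its SE. The cause of these moves was not tested. Under the replicate block by animal 16529 genes differed between tissues, against 16663 without, and Trpm2 was at 0.45, against 0.48. Susd3, Bank1 and Abcc3 rest on 4 to 60 counts per anti-IL34 forebrain library, which limits their precision.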
